A study of Homo sapiens with 7 samples.

Results

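NF-κB subunits, NF-κB inhibitors and CXCL chemokines were described here through 10 genes, of 20072 gene symbols in the deposited table. The rule names the genes by their function and uses no measured value. They are the inhibitors NFKBIA, NFKBIB, NFKBIE and TNFAIP3, the subunits NFKB1, NFKB2 and RELB, and the chemokines CXCL1, CXCL2 and CXCL3. All 10 had reads in every library, and all 10 passed the expression filter that left 14305 genes for testing.

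The cells were HCT116, an established line of human colorectal carcinoma, growing in log phase, and the labels name no stimulus or other treatment. Transcription rate (TR) was read by GRO-seq in 2 libraries, mRNA abundance (RA) by RNA-seq in 3 and translation activity (TA) by polysome profiling in 2. In GRO-seq, nuclei are isolated and polymerases already on a gene run on with a bromo-uridine label, so that nascent RNA is sequenced, and in polysome profiling the mRNA that sediments with several ribosomes is sequenced, here after cycloheximide had been given to hold ribosomes in place. All groups share this line and, by the study's methods, a serum-free medium with epidermal growth factor, insulin and transferrin. Cycloheximide was given to the TA cells alone, so its part in the TA values and that of the polysome step cannot be told apart. TR, RA and TA are readings of a gene at successive steps.

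NF-κB is a family of dimeric transcription factors that is held in the cytoplasm by IκB proteins. Upstream kinases mark IκB for destruction, the dimers enter the nucleus, and genes that carry κB sites are transcribed, those of the inhibitors among them, which closes a negative feedback loop. Many mRNAs of this system are short-lived, and AU-rich elements in the 3′ untranslated region (3′ UTR) are known to bring several of them to the decay machinery. CXCL1, CXCL2 and CXCL3 are secreted ligands of the receptor CXCR2 that attract neutrophils, and colorectal tumour cells are known to secrete them.

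The promoters are shown first, as the place where matches to the κB consensus were sought. The windows below are RefSeq promoter sequence (GRCh38.p14), 5′ to 3′ on the gene's strand, and the capitals mark the 10-base κB consensus, read on either strand, with overlapping matches joined into 1 site.
CXCL1: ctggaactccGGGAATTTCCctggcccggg
CXCL2: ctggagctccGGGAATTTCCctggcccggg
CXCL3: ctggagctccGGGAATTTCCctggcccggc
NFKBIB: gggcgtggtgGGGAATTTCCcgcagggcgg
NFKB1: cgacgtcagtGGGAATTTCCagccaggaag
NFKB2: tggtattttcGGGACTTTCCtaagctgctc
NFKBIA: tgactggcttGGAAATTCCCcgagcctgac
TNFAIP3: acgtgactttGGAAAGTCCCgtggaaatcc

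The 3 chemokine windows lie at chr4:73869304-73869333 (+ strand, CXCL1), chr4:74099254-74099283 (− strand, CXCL2) and chr4:74038749-74038778 (− strand, CXCL3). Their site begins 79, 78 and 79 bases before the start site, and the 10 capital letters are the same in all 3. The NFKBIB window, at chr19:38899931-38899960 (+), and the NFKB1 window, at chr4:102501300-102501329 (+), carry the same 10 letters, 28 and 49 bases before the start. In NFKB2 the window shown is at chr10:102395674-102395703 (+), 21 bases before the start, and it is 1 of 4 sites over its 3 listed promoters. NFKBIA, at chr14:35404811-35404840 (−), and TNFAIP3, at chr6:137867182-137867211 (+), hold the site on the opposite strand, 81 and 67 bases before the start. TNFAIP3 and NFKBIB have another match 55 bases before and 38 bases after the start, which are not shown. NFKBIE and RELB have no entry in the promoter table. All 8 genes with an entry had a match within the 300 bases around a start site, against 13.3% of the 27305 genes in that table. A match describes the letters only and is not a measurement of binding.

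The 3′ UTRs are shown next, as the part of the mRNA in which AU-rich repeats were counted. Any part of these repeats in the RA values was not tested. Letters are DNA of the mRNA strand from the canonical transcripts (GRCh37), 5′ to 3′, and the capitals mark each copy of the pentamer ATTTA, where neighbouring copies can overlap.
CXCL1: aagtcttctATTTATTTATTTAttcattag
CXCL2: cttctATTTATTTATTTATTTATTTAtttg
CXCL3: aatgtcagttgttATTTAttcaaattatct
TNFAIP3: tgtaattcactttATTTAttttattacaaa

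These windows are exonic 3′ UTR at chr4:74736390-74736419 (+, CXCL1), chr4:74963303-74963332 (−, CXCL2), chr4:74902490-74902519 (−, CXCL3) and chr6:138203434-138203463 (+, TNFAIP3). They begin 137, 141, 460 and 978 bases past the stop codon. CXCL2 held 10 copies of ATTTA in a 3′ UTR of 716 bases, CXCL3 held 7 in 673 bases and CXCL1 held 6 in 772 bases. TNFAIP3 held 5, NFKBIA and NFKB1 held 3 each and NFKB2 held 1, while NFKBIB, NFKBIE and RELB held none in 57, 1053 and 402 bases. The longer motif TTATTTATT, which overlaps the pentamer, occurred 5 times in CXCL2, 3 times in CXCL1 and 1 time in each of CXCL3 and TNFAIP3. The other 6 genes had no copy of it. Of 19064 canonical 3′ UTRs, 67.9% held ATTTA, 8.48% held TTATTTATT and 1.999% held 2 or more copies of the longer motif. The density of ATTTA was 13.97 per kb in CXCL2, 10.4 in CXCL3 and 7.77 in CXCL1, against a median of 1.53 per kb over these 3′ UTRs. It was 6.76 in NFKB2, where the 3′ UTR has 148 bases, 6.0 in NFKBIA, 4.24 in NFKB1 and 2.51 in TNFAIP3. A density above that median was thus not particular to the chemokines.

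In the annotation of the files' build, the chemokine genes lie together on chromosome 4 (GRCh37), CXCL1 at chr4:74735110-74737025 (+), CXCL3 at chr4:74902306-74904524 (−) and CXCL2 at chr4:74962757-74964913 (−). NFKBIA is at chr14:35870285-35873955 (−), NFKBIB at chr19:39390340-39399533 (+), NFKBIE at chr6:44225903-44233525 (−) and TNFAIP3 at chr6:138188351-138204451 (+). The subunit genes are at chr4:103422487-103538459 (+, NFKB1), chr10:104153867-104162281 (+, NFKB2) and chr19:45504719-45541450 (+, RELB). CXCL1, CXCL2 and CXCL3 are close paralogs, and windows shared between canonical transcripts of the members were not counted, so their likeness to each other was not measured. No 50-base window of their canonical transcripts occurred in a transcript of a gene outside the members. The same was true of the other genes except NFKB2, where 0.607% of windows were shared. A gene on the opposite strand covered 1.72% of the exon bases of NFKBIB and 1.47% of those of TNFAIP3, and whether strand was used in counting is not given in the sources used here.

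Every value below is an RPKM, which is the authors' read count over exons scaled by exon length and by the reads of the library. It is a relative level within its library, so a gene can be compared between TR, RA and TA only relative to the other genes. The libraries held 3391897 to 5629982 reads in TR, 20299018 to 22532134 in RA and 22421062 to 30805391 in TA. Values of the least covered member, CXCL3, rested on 33 to 122 reads, and those of the best covered, NFKB2, on 700 to 9584 reads. Of 8 markers of colon epithelium, 8 had a mean of 1 RPKM or more in TR, and 7 did so in RA and TA, where VIL1 was below that level. The summed level of 6 leukocyte markers was 4.68 to 5.73 RPKM in TR, 0.518 to 0.813 in RA and 0.407 to 0.576 in TA, and that of 6 fibroblast and endothelium markers was 18.6 to 22.0, 10.5 to 14.1 and 3.88 to 4.96. Single genes held much of these sums. COL1A1 alone had means of 17.6, 11.5 and 3.96 RPKM in TR, RA and TA, and CD79A had 3.55 in TR. The source of these marker reads, and the part of the lower depth of TR in the results, were not tested. In bulk libraries such as these, fewer cells of a type and less RNA per cell cannot be told apart. The study's methods call the replicates biological, and neither they nor the labels say whether these were separate cultures, so p-values measure the spread between these libraries.

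**Figure D1:**
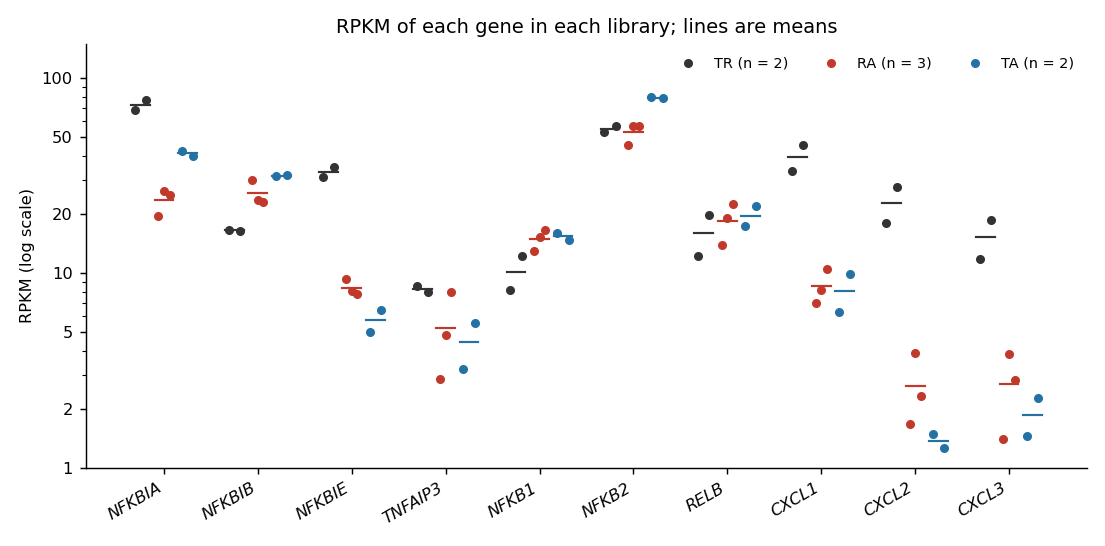
RPKM of the 10 genes on a log axis, with 1 point per library (TR in black, RA in red, TA in blue) and a bar at the mean of each parameter. NFKBIA, NFKBIE, TNFAIP3 (by a narrow margin) and the 3 chemokines lie lower in every RA library than in either TR library, as 54.9% of all genes did, while NFKBIB and NFKB1 lie higher, as 24.3% did.

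The inhibitors did not share a direction between TR and RA. NFKBIA, which encodes IκBα, and NFKBIE, which encodes IκBε, were lower in RA than in TR, and NFKBIB, which encodes IκBβ, was higher. TNFAIP3, which encodes the ubiquitin-editing enzyme A20 that shuts off signalling upstream of the IκB kinase, did not pass the test in any comparison with all 7 libraries and no replicate block. In TA relative to RA, NFKBIA was the only inhibitor that passed the test, and it was higher. Over all genes tested, 19.2% were called higher and 48% lower in RA against TR, and 6.66% and 29.2% in TA against RA.

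NFKBIA had 69.0 and 77.3 RPKM in TR, 19.7, 26.3 and 25.2 in RA and 42.4 and 40.0 in TA. TR was thus highest, RA lowest and TA between them, with no overlap between the libraries of any 2 parameters. The stability index, which is the log2 difference of RA against TR on log2(RPKM + 0.1), was -1.63 (SE 0.18, limma adjusted p = 9.05e-05), a 3.09-fold lower level. The translation index, the corresponding difference of TA against RA, was 0.80 (SE 0.18, adjusted p = 0.0127), a 1.75-fold higher level. Without TA replicate 1 it was 0.76 with adjusted p = 0.0776. On the translation index, 4.42% of all genes tested lay above NFKBIA, while 29.9% lay below it on the stability index.

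NFKBIE had 31.2 and 35.1 RPKM in TR, 9.28, 8.13 and 7.76 in RA and 4.99 and 6.43 in TA. Its RPKM went down at each step, with no overlap between the libraries of any 2 parameters. Its stability index was -1.97 (SE 0.19, adjusted p = 4.37e-05), a 3.92-fold lower level. The translation index of NFKBIE was -0.55 (SE 0.19, adjusted p = 0.0541), with a 95% interval from -0.996 to -0.112 before adjustment, and so did not pass the test. Where the filter asked for 1 RPKM or more in all 3 parameters, its adjusted p was 0.0483. With each library centred on its median, the translation index of NFKBIE was -0.05 (adjusted p = 0.853). With the replicate block its adjusted p was 0.146. From TR to TA the level of NFKBIE fell by 2.52 on the log2 scale (SE 0.21, adjusted p = 1.36e-05), a 5.75-fold lower level.

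NFKBIB had 16.7 and 16.5 RPKM in TR, 30.2, 23.6 and 23.3 in RA and 31.6 and 31.7 in TA. All RA libraries lay above both TR libraries, and both TA libraries lay above all RA libraries. The stability index of NFKBIB was 0.62 (SE 0.17, adjusted p = 0.0128), a 1.53-fold higher level, and 18.9% of genes lay above it. Without TR replicate 1 or TR replicate 2 its adjusted p was 0.051 or 0.0593. For TA against RA, NFKBIB had a translation index of 0.31 (SE 0.17, adjusted p = 0.191) and did not pass the test. TA against TR was 0.93 (SE 0.19, adjusted p = 0.00222), a 1.90-fold higher level.

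TNFAIP3 had 8.59 and 8.02 RPKM in TR, 2.86, 4.81 and 7.97 in RA and 3.23 and 5.57 in TA. The TR libraries were close to each other, the RA libraries spanned most of the range below them, and the TA libraries fell within the RA range. For RA against TR, TNFAIP3 had a stability index of -0.78 (SE 0.42, adjusted p = 0.132), with a 95% interval from -1.74 to 0.19. Without RA replicate 3 it was -1.14 with adjusted p = 0.0308. TA against TR was -0.95 (SE 0.46, adjusted p = 0.0915), and without RA replicate 1 or RA replicate 3 its adjusted p was 0.0355 or 0.0498. Its translation index was -0.17 (SE 0.42, adjusted p = 0.782). The SE of TNFAIP3 was more than that of any other inhibitor.

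The subunits lay above the median of all genes in every comparison. That median was -0.58 for RA against TR, -0.37 for TA against RA and -1.08 for TA against TR. NFKB1 rose from TR to RA, and NFKB2 rose from RA to TA. RELB did not pass the test in either comparison.

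NFKB2, which encodes p100, the precursor of p52 in the non-canonical pathway, had 53.1 and 57.0 RPKM in TR, 45.4, 57.1 and 57.1 in RA and 80.1 and 79.2 in TA. RA and TR overlapped, while both TA libraries lay above the other 5. Its stability index was -0.06 (SE 0.17, adjusted p = 0.787), with a 95% interval from -0.46 to 0.34. The translation index of NFKB2 was 0.59 (SE 0.17, adjusted p = 0.0319), a 1.504-fold higher level, and 8.95% of genes lay above it. That call was lost without TR replicate 1 (adjusted p = 0.05002), RA replicate 3 (0.0674), TA replicate 1 (0.134) or TA replicate 2 (0.106). TA against TR was 0.53 (SE 0.19, adjusted p = 0.0322), and this call was lost in 5 of the 7 fits that left out a library, namely without TR replicate 1 or 2, RA replicate 3 or TA replicate 1 or 2, with adjusted p of up to 0.101.

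NFKB1, which encodes p105, the precursor of p50, had 8.16 and 12.2 RPKM in TR, 13.0, 15.3 and 16.6 in RA and 16.1 and 14.8 in TA. RA and TA overlapped each other, and both lay above TR. The stability index of NFKB1 was 0.57 (SE 0.22, adjusted p = 0.0475), a 1.49-fold higher level. It was 0.28 with adjusted p = 0.287 without TR replicate 1, and the call was also lost without RA replicate 2 (0.0904), RA replicate 3 (0.139), TA replicate 1 (0.0642) or TA replicate 2 (0.0637). For TA against RA, NFKB1 had a translation index of 0.05 (SE 0.22, adjusted p = 0.881), with a 95% interval from -0.46 to 0.56. TA against TR was 0.62 (SE 0.24, adjusted p = 0.0438). Without TR replicate 1 it was 0.34 with adjusted p = 0.225, and the call was lost as well without RA replicate 2 or 3 or TA replicate 1 or 2.

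RELB, the subunit that pairs with p52, had 12.2 and 19.8 RPKM in TR, 13.9, 19.2 and 22.6 in RA and 17.5 and 22.0 in TA. The 3 parameters overlapped. For RA against TR, RELB had a stability index of 0.23 (SE 0.28, adjusted p = 0.498) and a translation index, for TA against RA, of 0.11 (SE 0.28, adjusted p = 0.799). The 95% intervals ran from -0.42 to 0.88 and from -0.54 to 0.76. Without TR replicate 1, the stability index of RELB was -0.12.

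All 3 chemokines were lower in RA than in TR, as 48% of all genes were, and their log2 differences were further below 0 than those of the inhibitors and subunits, although differences between genes were not tested. None of them passed the test in TA against RA. Their TR levels lay within the range of the NF-κB genes, while CXCL2 and CXCL3 had the lowest mean RA of the 10. CXCL1 was the most abundant of the 3 in each parameter.

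CXCL1 had 33.4 and 45.6 RPKM in TR, 7.03, 8.23 and 10.4 in RA and 6.29 and 9.92 in TA. TR stood apart from RA and TA, which overlapped. Its stability index was -2.19 (SE 0.27, adjusted p = 0.000169), a 4.57-fold lower level. The translation index of CXCL1 was -0.10 (SE 0.27, adjusted p = 0.812), with a 95% interval from -0.72 to 0.53.

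CXCL2 had 18.1 and 27.6 RPKM in TR, 1.68, 3.91 and 2.34 in RA and 1.48 and 1.26 in TA. Its libraries did not overlap between any 2 parameters, although the lowest RA and the highest TA value were close. The stability index of CXCL2 was -3.12 (SE 0.36, adjusted p = 0.000122), an 8.67-fold lower level, with 15.7% of all genes below it. For TA against RA, CXCL2 had a translation index of -0.82 (SE 0.36, adjusted p = 0.112), with a 95% interval from -1.66 to 0.02. It was -1.09 with adjusted p = 0.0375 without RA replicate 1, and -0.51 with adjusted p = 0.229 without RA replicate 2. With each library centred on its median it was -0.32 (adjusted p = 0.542). These TA values rested on 55 and 34 reads. TA against TR was -3.94 (SE 0.40, adjusted p = 4.07e-05), a 15.3-fold lower level.

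CXCL3 had 11.8 and 18.8 RPKM in TR, 1.41, 3.85 and 2.83 in RA and 1.46 and 2.28 in TA. TR again stood apart, and RA and TA overlapped. For RA against TR, CXCL3 had a stability index of -2.53 (SE 0.43, adjusted p = 0.00106), a 5.77-fold lower level. Its translation index was -0.43 (SE 0.43, adjusted p = 0.472), with a 95% interval from -1.42 to 0.57. TA against TR was -2.96 (SE 0.47, adjusted p = 0.00059).

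**Figure D2:**
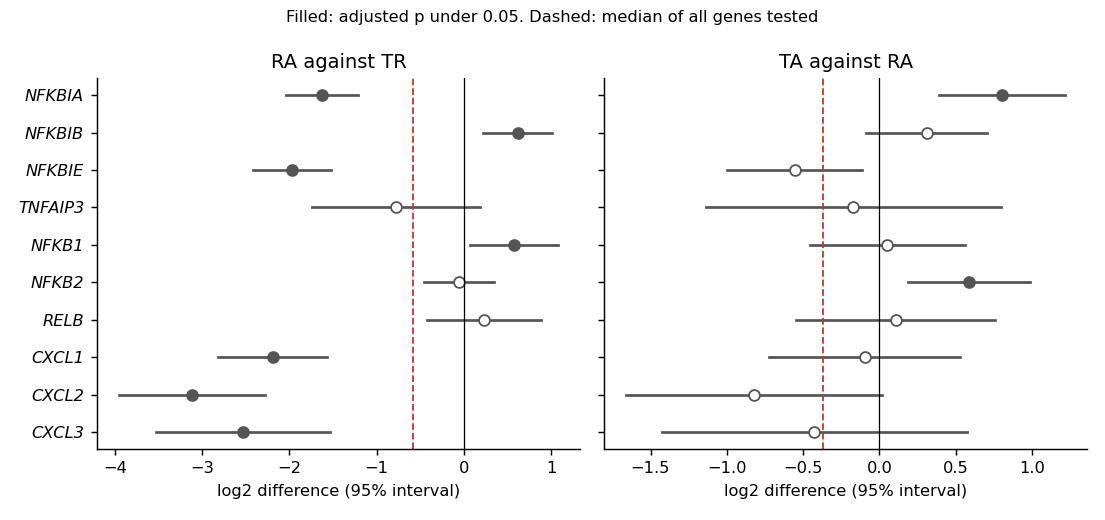
Log2 differences of the 10 genes with 95% intervals, for RA against TR (left) and TA against RA (right), where filled points passed the test at an adjusted p under 0.05 and the dashed red line is the median of all genes (-0.58 and -0.37). CXCL2 lies lowest on the left at -3.12 and NFKBIA highest on the right at 0.80.

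From TR to RA, 2 of the 10 genes were called higher and 5 lower, where 19.2% of all genes tested were called higher and 48% lower. In TA against RA, 2 were called higher and none lower, against 6.66% and 29.2% of all genes. From TR to TA, 3 were called higher and 5 lower, against 17% and 57.5%. Beside the 0 called lower by limma in TA against RA, 1 gene, NFKBIE, was lower at an unadjusted p under 0.05. Of the 14305 genes tested, 2632 reached the filter of 1 RPKM through TR alone, none of the 10 among them, and 2565 of these were called lower in RA. Among the 10825 genes that reached it in each parameter, as the 10 did, 24.7% were called higher and 34.2% lower from TR to RA, 8.67% and 28.3% from RA to TA, and 21.9% and 45.7% from TR to TA. Whether the counts of the 10 differ from these shares was not tested. The median over the 10 genes was -1.20 for RA against TR, -0.02 for TA against RA and -0.89 for TA against TR, beside -0.58, -0.37 and -1.08 for all genes and -0.17, -0.28 and -0.51 for those 10825. Of the 10, 4, 7 and 6 lay above the median of all genes. The 3 comparisons share libraries, so their counts are not independent.

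When each library was centred on its median, the split moved to 4 higher and 5 lower from TR to RA and to 4 higher and 4 lower from TR to TA. The shares of all genes called above are for libraries that were not centred. Those with centred libraries are not given here, so the centred counts have no background share beside them. The calls added from TR to RA were NFKB2 and RELB, with centred stability indices of 0.62 (adjusted p = 0.0152) and 0.90 (adjusted p = 0.0184), and RELB was also added from TR to TA. NFKBIA from TR to TA turned from -0.83 (adjusted p = 0.00527) to 0.35 (adjusted p = 0.162). The chemokines and NFKBIE stayed lower in both of these comparisons, and NFKBIA from TR to RA was -0.96 (adjusted p = 0.00208). Centring gave for TA against RA 3 higher, with NFKBIB added at 0.81 (adjusted p = 0.0119), and none lower.

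From TR to RA, 6 of the 10 genes had every RA library below every TR library, and 2 had every RA library above. The 6 were NFKBIA, NFKBIE, TNFAIP3 and the 3 chemokines, and the 2 were NFKBIB and NFKB1. Over all genes tested, 54.9% were wholly below and 24.3% wholly above. From RA to TA, NFKBIA, NFKBIB and NFKB2 were wholly above and NFKBIE and CXCL2 wholly below, where all genes gave 14.4% and 43.8%.

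**Figure D3:**
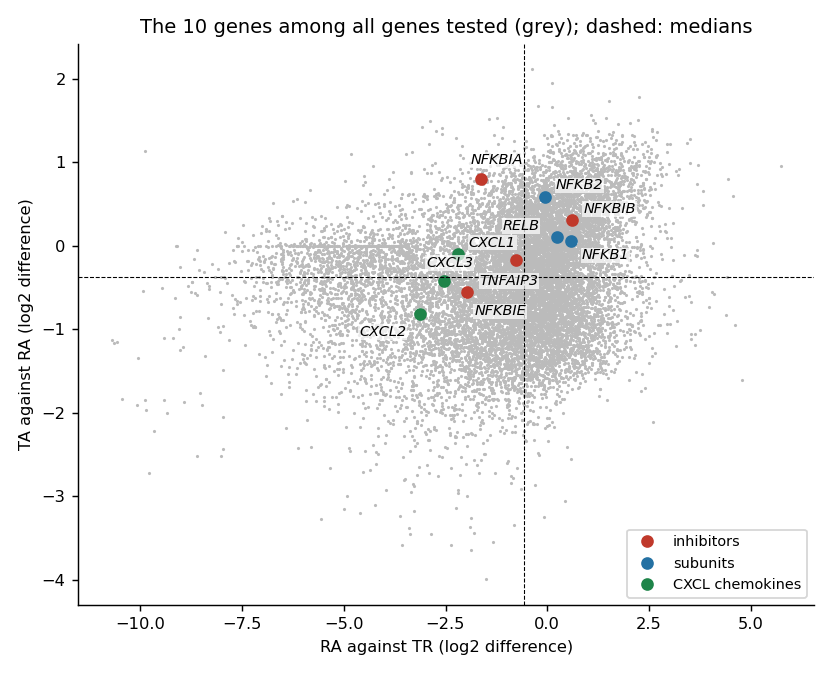
Log2 difference of RA against TR (x axis) and of TA against RA (y axis) for the 14305 genes tested (grey) and the 10 genes (coloured by role), with dashed lines at the medians of all genes. Both axes use the RA libraries, with opposite signs, and the slant of the cloud was not tested here. NFKBIA is the gene of the 10 that lies left of the vertical line and farthest above the horizontal one.

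Ratios of genes within a library do not depend on how the library was scaled, so 10 pairs were compared in the same way, between RA and TR and between TA and RA. With 2 libraries against 3, the smallest p an exact two-sided permutation test can give is 0.2, so none of the 20 comparisons could reach 0.05. In 13 of the 20 the libraries did not overlap, each with p = 0.2 and an adjusted p of 0.308 by the exact permutation test. How often pairs of other genes lack overlap was not counted, so the 13 have no background share beside them. The pairs share genes and libraries, so the 20 comparisons are not independent.

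The balance between the IκB mRNAs gave the widest of these differences. NFKBIA was 4.38 times NFKBIB in TR and 0.924 times NFKBIB in RA, a difference of -2.25 on the log2 scale. NFKBIE was 1.99 times NFKBIB in TR, 0.331 times in RA and 0.182 times in TA. NFKBIA to NFKBIE was 2.20 in TR and 2.79 in RA, where the libraries overlapped, and 7.16 in TA, which lay above all RA libraries with a difference of 1.36. NFKBIA and NFKBIE, both lower in RA than in TR, thus parted in TA.

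Among the subunits, NFKB1 was 0.183 times NFKB2 in TR, 0.283 times in RA and 0.195 times in TA. Both steps were without overlap, in opposite directions. NFKB2 to RELB was 3.53 (TR), 2.90 (RA) and 4.05 (TA), and only the step from RA to TA was without overlap. Among the chemokines, CXCL1 was 1.74 times CXCL2 in TR and 3.30 times in RA, without overlap, and 5.45 times in TA, where the libraries overlapped those of RA. CXCL2 was 1.502 times CXCL3 in TR and 0.9999 times in RA, again without overlap. CXCL1 to CXCL3 overlapped at both steps.

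The order of the levels differed between the parameters, and the range widened. In TR the order was NFKBIA, NFKB2, CXCL1, NFKBIE, CXCL2, NFKBIB, RELB, CXCL3, NFKB1 and TNFAIP3, from a mean of 73.2 to 8.30 RPKM. Neighbours overlapped between CXCL1 and NFKBIE and from NFKBIB down to TNFAIP3. In RA the order was NFKB2, NFKBIB, NFKBIA, RELB, NFKB1, CXCL1, NFKBIE, TNFAIP3, CXCL3 and CXCL2, from 53.2 to 2.64 RPKM. Here NFKB2 stood apart from NFKBIB, and NFKB1 from CXCL1, while all other neighbours overlapped. In TA the order was NFKB2, NFKBIA, NFKBIB, RELB, NFKB1, CXCL1, NFKBIE, TNFAIP3, CXCL3 and CXCL2, from 79.6 to 1.37 RPKM. Neighbours overlapped between CXCL1 and NFKBIE, between NFKBIE and TNFAIP3 and between CXCL3 and CXCL2, and stood apart elsewhere. The highest mean was 8.81 times the lowest in TR, 20.1 times in RA and 58.0 times in TA. The SD of the 10 log2 mean levels was 1.04, 1.43 and 1.93. Over the 10825 genes with a mean of 1 RPKM or more in each parameter the SD was 1.29, 1.67 and 1.95, which also widened from TR to RA and from RA to TA.

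Most of these genes had lower values in RA replicate 1 than in the other 2 RA libraries, and lower values in TR replicate 1 than in TR replicate 2 (8 of 10, against 54.7% of all genes). RA replicate 3 was above RA replicate 2 in 4 of 10, against 48.8% of all genes, and TA replicate 2 above TA replicate 1 in 6 of 10, against 49.3%. RA replicate 2 was above RA replicate 1 in 8 of 10, with a median difference of 0.37 on the log2 scale, where 48.1% of all genes were above. RA replicate 3 was above RA replicate 1 in 8 of 10 as well, with a median of 0.41, against 45.8% of all genes. The genes that went the other way were NFKBIB, at -0.35 and -0.37, and NFKBIE, at -0.19 and -0.25.

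The widest of these differences belonged to TNFAIP3 and the chemokines. TNFAIP3 was 1.45 higher in RA replicate 3 than in RA replicate 1, and 0.77 higher in TA replicate 2 than in TA replicate 1. CXCL3 was 1.39 and CXCL2 1.17 higher in RA replicate 2 than in RA replicate 1. Between RA replicates 3 and 2, 4 of 10 genes were higher in replicate 3, against 48.8% of all genes. TR replicate 2 was above TR replicate 1 in 8 of 10 genes, against 54.7% of all genes, and TA replicate 2 above TA replicate 1 in 6 of 10, against 49.3%. No label ties these libraries to a batch, and what sets them apart was not tested.

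**Figure D4:**
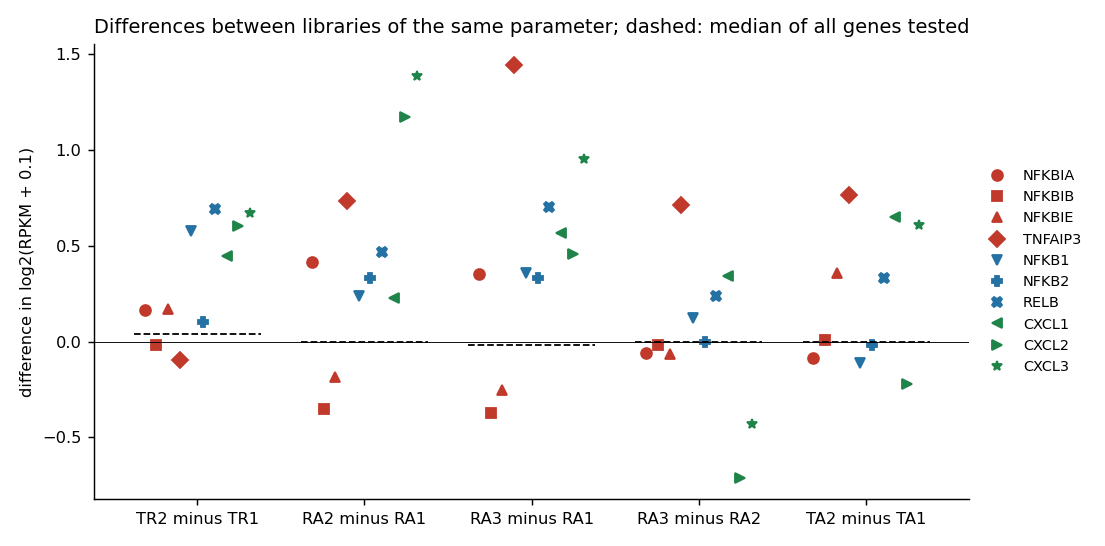
Difference in log2(RPKM + 0.1) between libraries of the same parameter for each of the 10 genes (inhibitors red, subunits blue, chemokines green), with the median of all genes as a dashed line. TNFAIP3 at 1.45 (RA replicate 3 minus RA replicate 1) and CXCL3 at 1.39 (RA replicate 2 minus RA replicate 1) lie farthest from that median, which is near 0 in each column.

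The genes most like a member were taken as the 3 with the smallest Euclidean distance over the mean log2 levels in TR, RA and TA, for 4 of the 10. NFKBIA was nearest to TMEM70 (distance 0.25), CBX8 and SRA1, and 173 genes lay within 1 log2 unit of it. CXCL1 was nearest to DOK1 (0.16), F12 and ZNF687, with 454 genes within that distance. TNFAIP3 was nearest to ERO1B (0.04), PHLPP1 and ZSCAN2, with 1112 genes, and RELB to ARMC6 (0.05), MAK16 and GOPC, with 1510 genes. Fewer genes thus shared the levels of NFKBIA than those of the other 3.

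The rest of the pathway was counted over 61 other genes, of which 54 were tested, 3 of them after passing the filter through TR alone. From TR to RA, 14 were higher, 22 lower and 18 not called, beside 19.2% and 48% of all genes higher and lower. From RA to TA, 1 was higher, 22 were lower and 31 not called, beside 6.66% and 29.2%, and at an unadjusted p under 0.05 they were 3 and 27. Whether these counts differ from those of the 10 genes was not tested. From TR to TA the counts were 7 higher and 27 lower, beside 17% and 57.5% of all genes. With centred libraries the counts in the 3 comparisons were 24 higher and 16 lower, 10 and 12, and 25 and 12, with no share of all genes beside them. The medians of the list were -0.21, -0.53 and -0.74, beside -0.58, -0.37 and -1.08 for all genes. Leaving out TR replicate 1, TR replicate 2 or RA replicate 3 lowered the 14 from TR to RA to 9, 8 and 9, and leaving out TA replicate 1 lowered the 22 from RA to TA to 11. The 7 from TR to TA were 3 without TR replicate 1 and 4 without TR replicate 2. The 1 gene higher from RA to TA became 0 without TR replicate 1 or 2 or TA replicate 1 or 2, and 2 without RA replicate 2.

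Of the other subunits and nuclear IκB genes, 4 of 5 were lower in RA than in TR and 3 of 5 lower in TA than in RA. Beside this list and those below stand 19.2% of all genes higher and 48% lower from TR to RA. From RA to TA these shares were 6.66% and 29.2%. Whether the count of any list differs from these shares was not tested. RELA, the transactivating subunit of the classical dimer, had 70.3 and 69.4 RPKM in TR, 39.4, 46.5 and 50.7 in RA and 60.4 and 53.8 in TA. Its stability index was -0.62 (SE 0.17, adjusted p = 0.0124), and 0.05 with centred libraries. Without TR replicate 1, the call of RELA was lost (adjusted p = 0.0507). REL, another transactivating subunit, had 8.74 and 9.67 RPKM in TR, 2.74, 2.39 and 4.94 in RA and 0.979 and 1.16 in TA. Its stability index was -1.497 and its translation index -1.499 (adjusted p = 0.00367 and 0.0111). The first of these was lost without TR replicate 2 (adjusted p = 0.0558) and the other without TA replicate 1 (0.0704). NFKBIZ and NFKBID, which encode nuclear IκB proteins, had stability indices of -3.30 and -3.24 and translation indices of -1.73 and -2.40. Their TA values were low, at 0.743 and 0.414 RPKM for NFKBIZ (96 and 39 reads) and 0.372 and 0.511 RPKM for NFKBID (21 and 21 reads). The call of NFKBIZ from RA to TA was lost without TA replicate 2, where its translation index was -1.37.

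Of 8 kinases of the pathway, 3 were higher and 4 lower in RA than in TR. MAP3K7, the kinase TAK1, and CHUK, the kinase IKKα, were highest at 0.76 and 0.69, and MAP3K14, the kinase NIK of the non-canonical pathway, and IKBKE were lowest at -2.16 and -1.87. In TA against RA, 4 were lower, led by MAP3K14 at -1.36 and CHUK at -1.31, and without TA replicate 1 the adjusted p of MAP3K14 was 0.0559.

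Of 15 receptors and adaptors, 2 were higher and 3 lower from TR to RA. TAB2 and IRAK1 were the higher ones, at 1.26 and 0.76, and TRADD and TRAF6 were lowest at -1.73 and -1.38. The call of TRADD was lost without TR replicate 1 (adjusted p = 0.0606). Between RA and TA, 6 were lower, with TRAF3 at -1.59 and TAB3 at -1.42 the lowest.

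Of 8 other inhibitory genes tested, 5 were higher and 2 lower in RA than in TR. TAX1BP1 and RNF11, which act with A20, were highest at 2.12 and 1.85, while TNFAIP3 itself was at -0.78 and did not pass the test. OTUD7B and OTULIN, both deubiquitinases, were the lower ones at -0.84 and -0.78, calls that were lost without TR replicate 2 for both (adjusted p = 0.0745 and 0.165), without TR replicate 1 or RA replicate 2 for OTULIN, and with centred libraries (-0.17 and -0.10). Against RA, 5 were lower in TA, with RNF11 at -1.33 and OTULIN at -1.16 the lowest, and both calls were lost without TA replicate 1 (adjusted p = 0.0567 and 0.0804).

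Of 11 other NF-κB target genes tested, 6 were lower and 1 higher from TR to RA. Of the 6, IL6, CCL20 and TRAF1 passed the filter through TR alone, at 1.07, 1.26 and 2.31 RPKM, so a lower value in RA was part of how they entered and their calls support nothing. IL6 had 2 and 11 reads in TR and 1 to 3 in RA. ICAM1, an adhesion molecule, and the cytokine IL6 were lowest at -3.03 and -2.66, and the higher one was the survival gene BCL2L1 at 1.79. CXCL1 and CXCL3 were at -2.19 and -2.53, and CXCL2, at -3.12, lay just below ICAM1. In TA against RA, LIF at -1.59 and TRAF1 at -1.22 were lowest among the 3 that were lower, and the call of TRAF1 was lost without TA replicate 2 (adjusted p = 0.0503).

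Of 7 genes for proteins that bind AU-rich RNA or, for ZC3H12A, cut mRNA, 3 were higher and 3 lower from TR to RA. KHSRP and HNRNPD were highest at 0.87 and 0.79, and ZC3H12A and ZFP36, which encode Regnase-1 and tristetraprolin, were lowest at -3.19 and -2.45. The call of HNRNPD was lost in all but 1 of the fits that left out a library, the exception being RA replicate 2, and that of KHSRP without TR replicate 2 (adjusted p = 0.171). ZFP36 was the gene of the 61 that was called higher from RA to TA, at 0.82 (adjusted p = 0.0448), close to NFKBIA at 0.80. Its call was lost in all but 1 of the fits that left out a library, the exception being RA replicate 3, with an adjusted p of up to 0.22. ZC3H12A was lower there at -1.81.

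**Figure D5:**
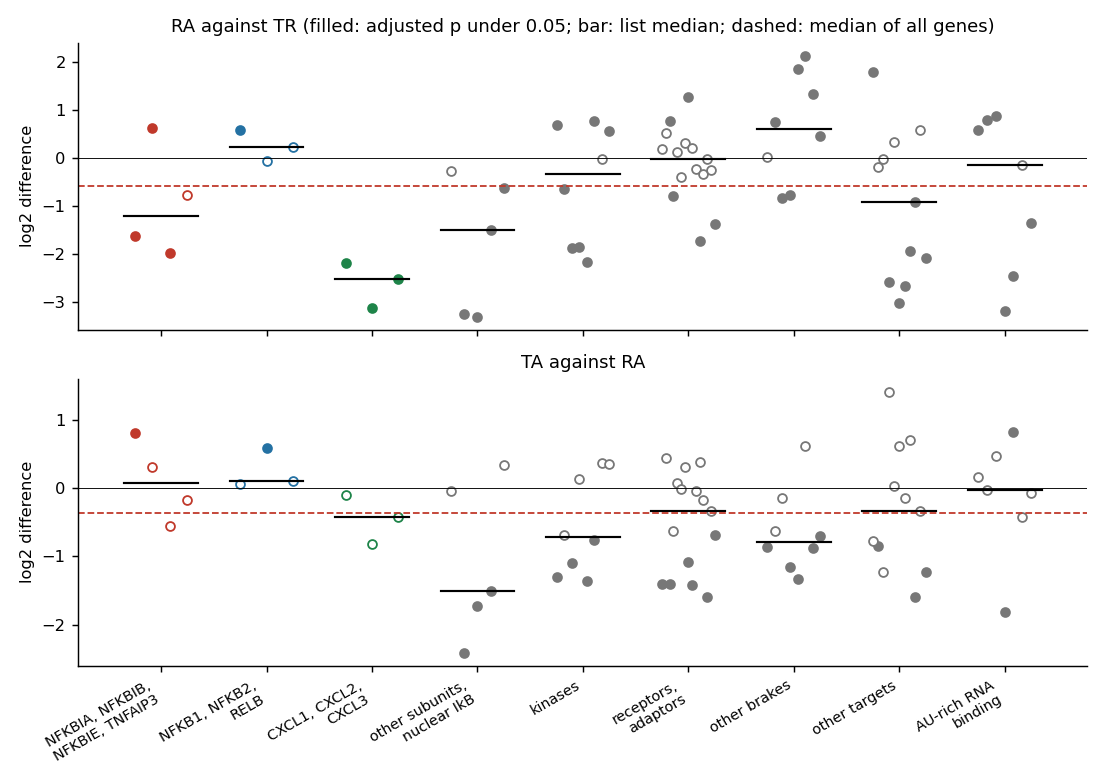
Log2 difference of each tested gene, by list, for RA against TR (top) and TA against RA (bottom), where filled points passed the test, black bars are list medians and the dashed red line is the median of all genes. The subunits NFKB1, NFKB2 and RELB lie above the dashed line in both panels, and the 3 chemokines lie below it in the top panel.

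The longer AU-rich motif, which the chemokines and TNFAIP3 carry, was also set against the stability index over all genes, as a description. The median stability index was -0.54 over 11925 genes with no TTATTTATT in the 3′ UTR, -0.40 over 859 genes with 1 copy and -0.47 over 270 genes with 2 or more. CXCL1 and CXCL2, with 3 and 5 copies, lay at -2.19 and -3.12, beyond the lower quartile of -1.61 for genes with 2 or more. Of the members with 1 copy, CXCL3 lay at -2.53, beyond the lower quartile of -1.22 for that class, and TNFAIP3 at -0.78, above it. NFKBIE, with no copy of either motif, lay at -1.97, close to the lower quartile of -1.93 for genes without the longer motif. Of the other members without the longer motif, NFKBIA lay at -1.63, between that quartile and the class median of -0.54. NFKB2, RELB, NFKB1 and NFKBIB lay above that median, at -0.06, 0.23, 0.57 and 0.62. The median translation index over the same 3 classes was -0.33, -0.55 and -0.56, and CXCL1 lay at -0.10 and CXCL2 at -0.82. These classes include genes that passed the filter through TR alone.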

How the data were processed

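All 7 libraries of HCT116 cells in log phase came from 1 table of RPKM values, which the authors deposited per gene and library with replicates kept apart. According to the study's methods, reads were mapped to hg19 with TopHat and counted over exons with HTSeq-count, and the submitters' processing notes also name CASAVA. The counting mode, strand setting and annotation are not given in the sources used here. Library sizes and reads per gene were recovered from the RPKM values, which are whole multiples of what 1 read is worth.

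Genes whose mean reached 1 RPKM in TR, RA or TA were tested on log2(RPKM + 0.1) with limma 3.58.1 in R 4.3.3 (eBayes with a trend), all 7 libraries in 1 fit, Benjamini-Hochberg adjustment over 14305 genes and a threshold of 0.05, two-sided. A fold change on this scale understates the change of low genes. Intervals are at 95% and are not adjusted. Ratios of members used an exact permutation test. The fit was tested on simulated data. Groups follow the sample titles.

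Positions and 3′ UTRs came from GENCODE release 44 lifted to GRCh37, and promoters from RefSeq (GRCh38.p14). Protein sequences were not used here. Python 3.11.15, pandas 2.3.3, numpy 2.4.6, scipy 1.17.1 and matplotlib 3.10.9 were used.

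The rule that names the members goes by function and uses no measured value. The members and the other gene lists were nonetheless chosen with earlier results of these data known. Of the pathway lists, the text names RELA, REL and, in a comparison, up to 2 called genes each way with the largest and smallest differences. Alternatives covered the pseudocount, the filter, centring of libraries, a replicate block and each library left out.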

Additional observations from a re-analysis of the deposited data

How the results depend on the processing

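Over the 10 genes, 390 values under other settings were set against the reported ones. Of these, 332 kept direction and side of the threshold, 29 kept direction and lost the call, 10 kept direction and gained one and 19 changed sign. For the named pathway genes other than RELA and REL, 380 of 420 values kept direction and call and 40 lost the call. The cause was not tested, except that leaving out a library leaves fewer samples. From TR to RA, the 2 genes called higher became 1 without a filter, with at least 1 RPKM in each parameter or with the block, and 4 with centred libraries. From RA to TA, the 0 called lower became 1 with at least 1 RPKM in each parameter. Over single libraries left out, the counts of genes higher and lower were 0 to 2 and 5 to 6 (RA against TR), 0 to 2 and 0 to 1 (TA against RA) and 1 to 3 and 5 to 6 (TA against TR). For the pathway list they were 8 to 12 and 16 to 23, 0 to 2 and 11 to 26, and 3 to 9 and 24 to 30. The non-overlapping ratios were 13 to 16.

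With centred libraries the pathway list gave 24 higher from TR to RA, 10 higher and 12 lower from RA to TA, and 25 higher and 12 lower from TR to TA. The shares of all genes called with centred libraries are not given here. Its 1 gene higher from RA to TA became 0 with a pseudocount of 1 or without a filter, and 2 with at least 1 RPKM in each parameter. Centring also turned the sign of NFKB2 (0.62) and RELA (0.048) for RA against TR, of TNFAIP3 (0.33), CXCL1 (0.41) and CXCL3 (0.075) for TA against RA, and of NFKBIA (0.35), TNFAIP3 (0.22) and RELA (0.88) for TA against TR. Leaving out a library turned the sign of uncalled values only, with ranges of -0.11 to 0.054 for NFKB2 and -0.12 to 0.57 for RELB (RA against TR), and -0.012 to 0.68 for RELB (TA against TR). For TA against RA the ranges were -0.55 to 0.21 for TNFAIP3, -0.047 to 0.13 for NFKB1, -0.088 to 0.27 for RELB and -0.42 to 0.23 for CXCL1.

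The replicate numbers were not taken as pairs. The deviations of same-numbered libraries correlated over 14305 genes at r = 0.08 (TR and RA), -0.50 (RA and TA) and 0.01 (TR and TA), and genes are not independent replicates. With the replicate block, in which RA replicate 3 has no partner, members called higher were 1, 0 and 1 in the 3 comparisons, and the pathway list gave 8 higher, 0 higher and 11 lower, and 4 higher. Members called lower were 6, 0 and 6, since TNFAIP3 gained calls from TR to RA (-1.14, limma adjusted p = 0.0291) and from TR to TA (-0.95, adjusted p = 0.0433). Under that block TNFAIP3 and CXCL1 turned to 0.19 and 0.054 for TA against RA. Depth limits CXCL2 and CXCL3 most, with 33 to 187 reads per library.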
